A study of Mus musculus with 9 samples.

Results

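The interferon regulatory factor (IRF) family was examined in BCR/ABLp185+ mouse cell lines lacking Stat5a or Stat5b. Its members were taken by name (Irf1, Irf2, Irf3, Irf4, Irf5, Irf7, Irf8 and Irf9), which gave 8 of the 50686 genes in the count tables. No member was picked by a cut on its expression, but the family was chosen with earlier results of these data known. mRNA was sequenced in 9 libraries, 3 of each genotype, wt, Stat5a-/- and Stat5b-/-. The lines came from bone marrow of wt or knockout mice of the C57BL/6N background, transformed through a retrovirus that carries the BCR/ABLp185 oncogene, so that the wt controls have it too, and the labels name no treatment. There was 1 line of each genotype, and its 3 libraries were technical replicates, so that the p-values below measure the spread between libraries of these lines and not between lines of a genotype. Both comparisons against wt rest on the same 3 wt libraries.

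IRF proteins share an N-terminal DNA-binding domain that recognises the interferon-stimulated response element (ISRE). IRF3, IRF5 and IRF7 are activated by kinases downstream of nucleic acid sensors and drive interferon genes, IRF9 joins STAT proteins in the complex ISGF3 that carries the type I interferon signal, and IRF1 is induced through STAT dimers at gamma-activated sites (GAS) and is antagonised at many targets by IRF2. IRF4 and IRF8 act with the Ets factors PU.1 and Spi-B in B-lineage cells, where they control the pre-B-cell stage, and IRF8 is also needed for myeloid and dendritic cells.

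Levels are given as normalized CPM (counts scaled to a common library total) and, where genes are compared with each other, as normalized RPKM (the same per kilobase of exon). Libraries held between 11948136 and 19016396 counted reads. Stat5a stood at 43.1 ± 6.35 CPM in wt and 12.4 ± 1.02 in Stat5a-/- libraries, and Stat5b at 105.5 ± 1.96 in wt and 63.4 ± 7.72 in Stat5b-/- libraries (SD, n = 3), so that reads of each targeted gene remained in its knockout line. Stat5a and Stat5b are close paralogs, and the counting used no option for reads mapping to several places. The source of the remaining reads was not tested. The lines express B-lineage genes: of 12 marker genes, none was at 0 in all libraries of a line, and their summed level was 6513 to 7098 CPM in wt, 8939 to 9828 in Stat5a-/- and 7889 to 8971 in Stat5b-/- libraries. Of these 12, 8 (66.7%) were higher and 2 (16.7%) lower in Stat5a-/- against wt, beside 19.8% and 16.3% of all genes tested, the lower ones being Rag1 (-8.59 on the log2 scale) and Dntt (-1.63). In Stat5b-/- 7 (58.3%) were higher and 2 (16.7%) lower, beside 24.2% and 22.0%, the lower ones being Rag1 (-6.59) and Pax5 (-0.39). Markers of T cells were also read, and their summed level over 18 genes ranged from 1101 to 1491 CPM in wt, 1907 to 2212 in Stat5a-/- and 2472 to 3488 in Stat5b-/- libraries. Among these 18 genes, 9 (50.0%) rose in Stat5a-/- and 17 (94.4%) in Stat5b-/- against wt, beside 19.8% and 24.2% of all genes tested, with a median log2 difference of 0.43 and 1.15, and none was at 0 in all libraries of a line. The summed T-cell level therefore rose in the same order of genotypes as several IRF genes below, and its part in their differences was not tested. In libraries of whole cultures, fewer cells of a type and less RNA per cell cannot be told apart. Myeloid markers were scarce, with 5.89 to 12.96 CPM in the sum over 13 genes across all libraries.

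The windows upstream of the IRF genes were read from RefSeq (GRCm38.p6), which matched all 8 members with 11 start windows. Each window of 300 bases (250 before and 50 after the start) was searched on both strands for a GAS, spelled TTCNNNGAA, and for an ISRE, spelled GAAA, any pair of bases and GAAA again. Of all 32851 windows in the table, 8.3% held the GAS and 3.44% the ISRE letters, and no match of either overlapped the other in the windows shown. Irf1, Irf2 and Irf8 held a GAS match and Irf2 also an ISRE match. The stretches before the start of these 3 genes are shown because STAT dimers are known to bind GAS sites, and that of Irf7 because it had the largest difference in the family. Each stretch ends at the base before the start of the gene in the deposited count tables, which lies upstream of the RefSeq start for Irf2 and Irf7, so that 237 and 193 of the 250 bases are shown for them and all 250 for Irf1 and Irf8. Capitals mark the matches, and all 4 are written 5′ to 3′ on the gene's own strand. They lie at chr11:53769764-53770013 (Irf1, plus strand), chr8:46739495-46739731 (Irf2, plus strand), chr8:120736108-120736357 (Irf8, plus strand) and chr7:141266482-141266674 (Irf7, minus strand).
Irf1: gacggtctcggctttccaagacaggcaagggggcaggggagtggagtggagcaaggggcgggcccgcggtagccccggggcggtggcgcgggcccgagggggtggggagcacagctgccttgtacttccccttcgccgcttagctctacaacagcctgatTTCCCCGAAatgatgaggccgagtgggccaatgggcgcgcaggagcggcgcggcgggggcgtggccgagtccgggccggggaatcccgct
Irf2: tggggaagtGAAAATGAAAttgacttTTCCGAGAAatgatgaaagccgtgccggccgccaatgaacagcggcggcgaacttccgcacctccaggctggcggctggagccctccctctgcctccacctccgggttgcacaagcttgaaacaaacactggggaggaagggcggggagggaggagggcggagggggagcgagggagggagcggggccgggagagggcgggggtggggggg
Irf8: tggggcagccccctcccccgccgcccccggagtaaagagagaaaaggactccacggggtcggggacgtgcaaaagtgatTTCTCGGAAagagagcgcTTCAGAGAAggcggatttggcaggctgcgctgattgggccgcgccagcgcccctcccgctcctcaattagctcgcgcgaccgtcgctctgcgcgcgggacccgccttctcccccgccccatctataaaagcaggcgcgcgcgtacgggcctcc
Irf7: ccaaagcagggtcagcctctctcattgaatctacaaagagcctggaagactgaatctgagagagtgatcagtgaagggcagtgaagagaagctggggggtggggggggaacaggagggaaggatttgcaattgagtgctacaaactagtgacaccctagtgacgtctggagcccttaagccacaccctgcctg
The Irf1 match TTCCCCGAA began 90 bases before that deposited start, the Irf2 matches GAAAATGAAA and TTCCGAGAA 228 and 211 bases before it, and the Irf8 matches TTCTCGGAA and TTCAGAGAA 171 and 153 bases before it. The letters of neither motif were in the windows of Irf3, Irf4, Irf5, Irf7 and Irf9. Members with a GAS match differed in what their RNA did, since Irf1 rose in both knockout lines, Irf8 was lower in Stat5a-/- and Irf2 had no call in any comparison.

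In Stat5b-/- cells several IRF genes stood above wt, led by Irf7, Irf1 and Irf9. With the quasi-likelihood test of edgeR and p-values adjusted by Benjamini-Hochberg over 13852 genes, 5 of the 8 members were higher in Stat5b-/- at an adjusted p under 0.05 (Irf1, Irf3, Irf4, Irf7 and Irf9), against 24.2% of all genes tested. The count was 4 with DESeq2, with the replicate number as a block or without wt replicate 2 or 3, Stat5a-/- replicate 2 or Stat5b-/- replicate 1 or 2, since the call of Irf3 was then lost. It was 6 with an offset for GC content, where Irf5 was gained. A fold change above 2 was passed by 4 of them, against 10.6% of all genes. The test called 0 members lower, against 22.0% of all genes (8.44% with a fold above 2), and 0 were lower also with DESeq2 or at an unadjusted p under 0.05. In Stat5a-/- cells 4 members were higher than wt (Irf1, Irf4, Irf5 and Irf7) and 1 lower (Irf8), against 19.8% and 16.3% of all genes, and 1 of them, Irf7, passed a fold change of 2, against 7.75% of all genes higher and 6.49% lower. Irf7 lay near that limit at 2.03-fold, with Irf1 just under it at 1.98-fold, and it no longer passed without wt replicate 1 (1.89-fold), without Stat5a-/- replicate 1 (also 1.89-fold) or with an offset for GC content (1.79-fold). With that offset 2 members were called lower in Stat5a-/- than in wt, Irf3 joining Irf8. Between the knockout lines, 6 members were higher in Stat5b-/- than in Stat5a-/- (Irf1, Irf3, Irf4, Irf7, Irf8 and Irf9), against 16.4%, and 0 were called lower by edgeR or DESeq2, against 17.5%, though Irf5 was lower at an unadjusted p of 0.0297. That 0 became 1, Irf5, in edgeR without a filter on low counts or without Stat5b-/- replicate 1. A fold change above 2 between the knockout lines was passed by 2 of the 6, Irf7 and Irf9, against 4.81% of all genes higher and 6.6% lower. The 3 libraries of a line all lay above those of wt for 5 members in Stat5b-/-, against 27.4% of all genes, and for 5 in Stat5a-/-, against 25.5%, and all below them for 0 in Stat5b-/-, against 26.8%, and for 1 in Stat5a-/-, against 23.7%. Between the knockout lines the Stat5b-/- libraries all lay above those of Stat5a-/- for 6 members, against 22.3%, and all below for 0, against 22.5%. The median log2 difference over the 8 members was 0.45 in Stat5a-/- and 0.79 in Stat5b-/- against wt, beside 0.01 and 0.02 over all genes tested.

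**Figure D1:**
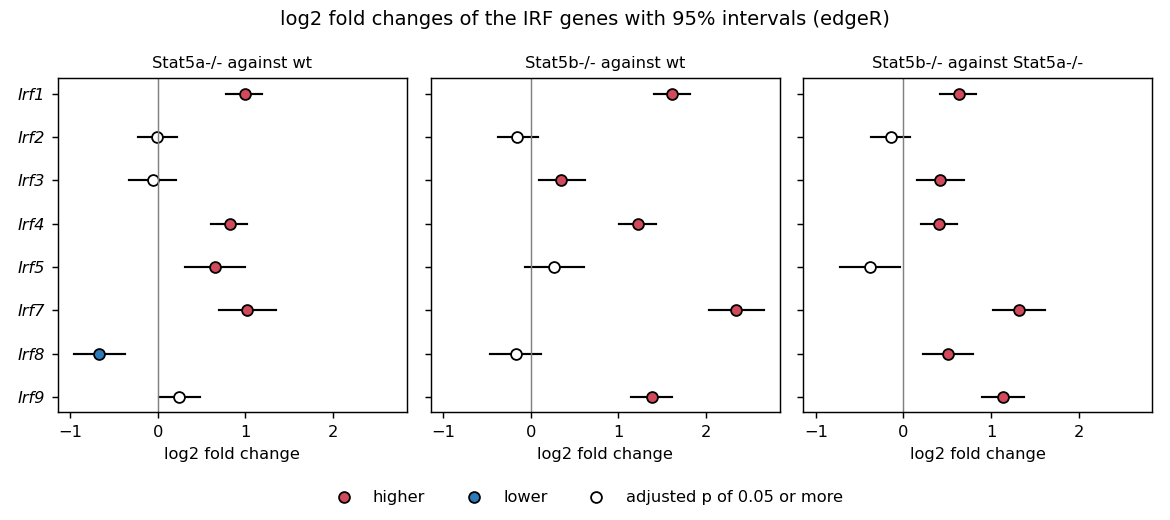
log2 fold change (x axis) of each IRF gene (y axis) in the 3 comparisons, with 95% intervals from edgeR; red points are higher and blue points lower at an adjusted p under 0.05, and white points are not called. Irf7 lies farthest to the right in Stat5b-/- against wt at 2.34, and Irf8 is the only blue point, at -0.67 in Stat5a-/- against wt.

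Irf7, the factor that amplifies type I interferon production, had the largest difference of the family. Irf7 (ENSMUSG00000025498.15, chr7:141262706-141266481, minus strand) was read at 5.08, 6.77 and 6.24 CPM in wt, 13.6, 11.8 and 11.4 in Stat5a-/-, and 34.2, 29.5 and 28.3 in Stat5b-/- libraries. The lines formed 3 separate steps, with every Stat5a-/- library above every wt library and every Stat5b-/- library above both. The log2 difference from wt was 1.02 (SE 0.15, adjusted p = 1.28e-04) in Stat5a-/- and 2.34 (SE 0.15, adjusted p = 3.61e-08) in Stat5b-/-, which is 2.03-fold and 5.07-fold. Stat5b-/- also exceeded Stat5a-/-, by 1.32 (SE 0.14, adjusted p = 1.09e-05). Irf7 shares 45 exon bases with Phrf1 on the opposite strand, and neither Phrf1 nor Deaf1, the nearest tested gene on the other side, was called in Stat5b-/- against wt, with log2 differences of -0.10 and 0.02.

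Irf9, the DNA-binding subunit of ISGF3, differed in Stat5b-/- cells. Irf9 (ENSMUSG00000002325.14, chr14:55603571-55610030, plus strand) was read at 17.8, 20.35 and 19.9 CPM in wt, 24.3, 21.6 and 22.8 in Stat5a-/-, and 54.1, 48.7 and 48.3 in Stat5b-/- libraries. The Stat5a-/- libraries lay just above the wt libraries, and those of Stat5b-/- stood far from both. The increase over wt was 1.38 on the log2 scale in Stat5b-/- (SE 0.11, adjusted p = 3.25e-07). In Stat5a-/- it was 0.24 (95% interval 0.01 to 0.48), with an unadjusted p of 0.0458 that missed the threshold after adjustment (adjusted p = 0.104). The difference between the knockout lines was itself tested, at 1.14 (SE 0.11, adjusted p = 4.04e-06). Stat2, which encodes a partner of IRF9 in ISGF3 and was singled out after its values were seen, had the same order of levels. It averaged 27.2, 32.4 and 47.0 CPM in wt, Stat5a-/- and Stat5b-/-, and was called higher in Stat5b-/- than in wt and in Stat5a-/- but not in Stat5a-/- against wt. Irf9 shares 123 exon bases with Rnf31 on the same strand, for which the log2 difference of Stat5b-/- from wt was 0.48 (adjusted p = 0.0429), while Ipo4 on the other side was lower by -0.80 (adjusted p = 0.00132).

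Irf1, the factor induced early by interferon gamma, rose in steps as well. Irf1 (ENSMUSG00000018899.16, chr11:53770014-53778374, plus strand) was read at 21.96, 21.7 and 21.2 CPM in wt, 44.05, 42.9 and 41.7 in Stat5a-/-, and 63.3, 69.0 and 66.1 in Stat5b-/- libraries. Libraries of 1 line lay close together, and no line overlapped another. Against wt the log2 difference was 0.99 (SE 0.10, adjusted p = 2.87e-06) in Stat5a-/- and 1.61 (SE 0.10, adjusted p = 2.2e-08) in Stat5b-/-, and between the knockout lines 0.63 (SE 0.09, adjusted p = 2.04e-04). Its antagonist Irf2 (ENSMUSG00000031627.9, chr8:46739732-46847458, plus strand) was read at 177.9 to 199.7 CPM in wt, 169 to 205 in Stat5a-/- and 156 to 184 in Stat5b-/- libraries. These ranges overlapped, and the log2 difference from wt had a 95% interval of -0.23 to 0.22 in Stat5a-/- (adjusted p = 0.982) and of -0.37 to 0.08 in Stat5b-/- (adjusted p = 0.267). Per exon length, the ratio of Irf1 to Irf2, chosen after the values were seen, lay between 0.197 and 0.227 in wt, 0.377 and 0.484 in Stat5a-/-, and 0.641 and 0.7865 in Stat5b-/- libraries. Irf1 RNA remained below that of Irf2 in every library on this scale. Gm17334, which shares 135 exon bases with Irf1 on the opposite strand and had 2 to 13 reads a library, was higher in Stat5b-/- than in wt by 1.48 (adjusted p = 0.0114), and Rad50 on the other side had a difference of -0.0052 (95% interval -0.25 to 0.24).

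**Figure D2:**
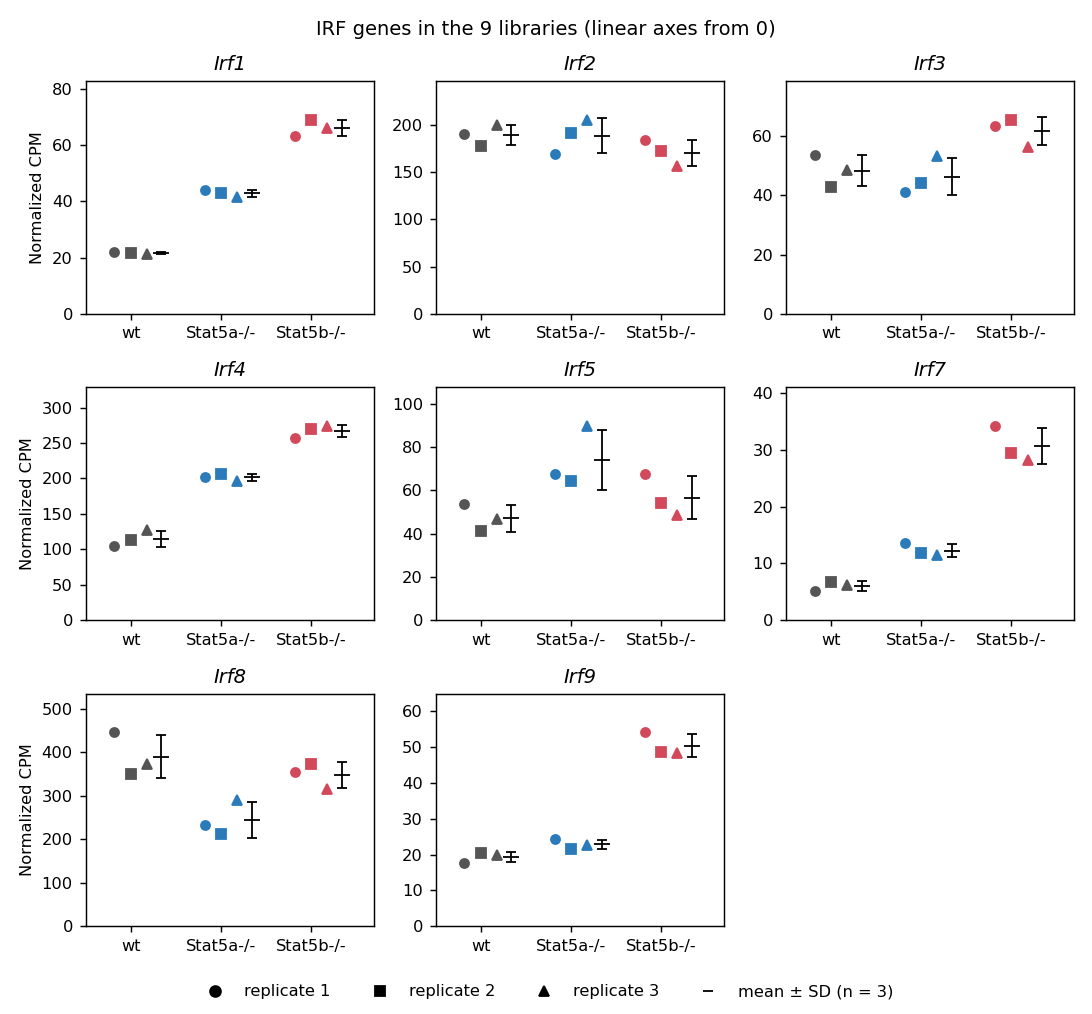
Normalized CPM (y axes, linear from 0, scaled per panel) of the 8 IRF genes in every library of the 3 genotypes (x axes); symbols give the replicate and bars the mean ± SD of 3 libraries. Irf1, Irf4 and Irf7 rise in 3 separate steps from wt through Stat5a-/- to Stat5b-/-, Irf9 stands apart in Stat5b-/-, and Irf8 is lowest in Stat5a-/-.

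IRF4 and IRF8, the lymphoid pair, did not move together. Irf4 (ENSMUSG00000021356.9, chr13:30749226-30766927, plus strand) was read at 104, 112.5 and 126.5 CPM in wt, 201.5, 206 and 197 in Stat5a-/-, and 257.5, 269.9 and 274 in Stat5b-/- libraries. No line overlapped another, and Stat5b-/- was the highest. The log2 difference from wt was 0.82 (SE 0.10, adjusted p = 1.73e-05) in Stat5a-/- and 1.22 (SE 0.10, adjusted p = 3.52e-07) in Stat5b-/-, and between the knockout lines 0.41 (SE 0.10, adjusted p = 0.00554). Of its neighbours, Exoc2 was higher in Stat5b-/- than in wt by 0.35 (adjusted p = 0.0146) and Dusp22 had a difference of -0.20 (adjusted p = 0.398). Irf8 (ENSMUSG00000041515.9, chr8:120736358-120756694, plus strand) was read at 445, 349.5 and 374 CPM in wt, 232, 211 and 290.5 in Stat5a-/-, and 353.5, 372.5 and 314 in Stat5b-/- libraries. The Stat5a-/- libraries were the 3 lowest, and those of wt and Stat5b-/- overlapped. Irf8 fell by 0.67 on the log2 scale in Stat5a-/- (SE 0.13, adjusted p = 0.00145), and in Stat5b-/- the difference from wt was -0.17 (95% interval -0.46 to 0.12, adjusted p = 0.328). Stat5b-/- stood above Stat5a-/- by 0.51 (SE 0.13, adjusted p = 0.0112), a call that was lost without Stat5a-/- replicate 1 (adjusted p = 0.0531) or replicate 2 (adjusted p = 0.0661). The ratio of Irf4 to Irf8 per exon length, also chosen after the values were seen, was 0.351 to 0.507 in wt, 1.01 to 1.46 in Stat5a-/- and 1.08 to 1.30 in Stat5b-/- libraries, below 1 in the 3 wt libraries and above 1 in all 6 knockout libraries. Because IRF8 is abundant in myeloid cells, their markers were read beside it, and the sum ranged from 5.89 to 8.48 CPM in wt, 6.27 to 7.55 in Stat5a-/- and 10.7 to 12.96 in Stat5b-/- libraries, with Elane at 0 in both knockout lines, Mpo and Cd14 at 0 in Stat5b-/- and S100a9 at 0 in Stat5a-/-. Of the 13 myeloid markers 4 were tested, and in Stat5b-/- against wt Lyz2 (1.07), Csf1r (1.09) and Itgax (1.55) were higher and Fcgr1 (-3.06) lower, while in Stat5a-/- Fcgr1 alone was called (-2.27). Lyz2 made most of the rise in the sum, with means of 3.90, 4.245 and 8.23 CPM in wt, Stat5a-/- and Stat5b-/-, and the other 12 markers summed to 3.06 to 3.74, 2.44 to 3.07 and 3.42 to 4.11 CPM. The summed markers of plasmacytoid dendritic cells, another cell type rich in IRF8, ranged from 221 to 246 CPM in wt, 166 to 169.8 in Stat5a-/- and 175 to 181 in Stat5b-/- libraries, and none of the 8 was at 0 throughout a line. The fall in that sum was that of 1 gene, Cox6a2, with means of 69.2, 1.97 and 4.71 CPM, and the other 7 summed to 160.4 to 176.3, 163.7 to 167.6 and 170.7 to 176.0 CPM. Of 7 tested, Runx2 was higher and Cox6a2 and Tcf4 were lower in Stat5a-/- against wt, with a median log2 difference of 0.23, so that 14.3% were higher and 28.6% lower beside 19.8% and 16.3% of all genes. In Stat5b-/- Ccr9, Runx2, Pacsin1 and Siglech were higher and Cox6a2 and Bst2 lower, with a median of 0.94, so that 57.1% were higher and 28.6% lower beside 24.2% and 22.0%. The part of either cell type in the Irf8 values was not tested.

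Irf3 and Irf5, which like IRF7 respond to sensor signals, had smaller differences. Irf3 (ENSMUSG00000003184.15, chr7:44997648-45002848, plus strand) was read at 53.5, 42.9 and 48.4 CPM in wt, 41.3, 44.2 and 53.3 in Stat5a-/-, and 63.3, 65.5 and 56.2 in Stat5b-/- libraries. The lowest Stat5b-/- library lay just above the highest library of either other line. Irf3 was higher in Stat5b-/- than in wt by 0.35 (SE 0.12, adjusted p = 0.0321) and than in Stat5a-/- by 0.42 (SE 0.12, adjusted p = 0.021). The first call was lost with DESeq2 (adjusted p = 0.0679) and with the replicate number as a block (adjusted p = 0.0634). It was also lost without any of 5 libraries in turn, among them wt replicate 2 (adjusted p = 0.133). The second was lost without Stat5a-/- replicate 1 or 2 or Stat5b-/- replicate 1 or 2 (adjusted p between 0.0597 and 0.102). Bcl2l12, which shares 88 exon bases with Irf3 on the opposite strand, was also higher in Stat5b-/- than in wt, by 0.60 (adjusted p = 0.00833). The Irf3 difference of Stat5a-/- from wt was -0.06 (95% interval -0.33 to 0.21, adjusted p = 0.737). With an offset for GC content it was called lower, at -0.25 (adjusted p = 0.0166).

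Irf5 was the member with its highest mean level in Stat5a-/-. Irf5 (ENSMUSG00000029771.12, chr6:29526625-29541871, plus strand) was read at 53.6, 41.2 and 46.7 CPM in wt, 67.8, 64.5 and 89.7 in Stat5a-/-, and 67.5, 54.1 and 48.4 in Stat5b-/- libraries. All Stat5a-/- libraries lay above those of wt, with Stat5a-/- replicate 3 well above the others, and the Stat5b-/- libraries overlapped both lines. Irf5 rose by 0.65 on the log2 scale in Stat5a-/- against wt (SE 0.16, adjusted p = 0.00538). In Stat5b-/- the difference from wt was 0.27 (95% interval -0.07 to 0.61, adjusted p = 0.186) and from Stat5a-/- -0.38 (95% interval -0.72 to -0.04, adjusted p = 0.0767). The latter was called without a filter on low counts (adjusted p = 0.0241) or without Stat5b-/- replicate 1 (-0.54, adjusted p = 0.0291). Irf5 shares 14.1% of its exon bases with Tnpo3 on the opposite strand, whose level of 140.5 to 181 CPM (means of the lines) exceeded that of Irf5 and was lower in Stat5b-/- than in wt by -0.37 (adjusted p = 0.00487), and counting without strand discards reads in such a stretch.

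The order of the members by level per exon length changed between the lines. In wt, Irf8 led with 55.2 ± 7.07 RPKM (SD, n = 3), followed by Irf2 with 25.6 ± 1.48 and Irf4 with 24.3 ± 2.37, whose libraries overlapped, then by Irf5 with 16.2 ± 2.13 and Irf3 with 14.0 ± 1.54, which overlapped too. Irf1 with 5.44 ± 0.0976, Irf9 with 3.59 ± 0.257 and Irf7 with 1.60 ± 0.229 each stood below the member before it. In both knockout lines Irf4 was first, with 42.8 ± 0.991 RPKM in Stat5a-/- and 56.65 ± 1.81 in Stat5b-/-, and Irf8 second, with 34.65 ± 5.84 and 49.2 ± 4.198, the libraries of these neighbours not overlapping. The middle of the order closed up in Stat5b-/-, where Irf2, Irf5, Irf3 and Irf1, at 23.1, 19.5, 17.9 and 16.6 RPKM, each overlapped the next, and so did Irf9 with 9.35 and Irf7 with 8.12. Irf8 gave 37.8% of the summed RPKM of the 8 members in wt, 21.6% in Stat5a-/- and 24.5% in Stat5b-/-, while Irf4 gave 16.6%, 26.7% and 28.3%. Irf1 and Irf7 gave larger shares in the knockout lines than in wt, Irf1 with 3.73%, 6.73% and 8.3% and Irf7 with 1.09%, 2.03% and 4.05% of the sum. The sum itself was 145.9 ± 10.1 RPKM in the wt line, 160.1 ± 12.75 in Stat5a-/- and 200.4 ± 9.15 in Stat5b-/-.

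**Figure D3:**
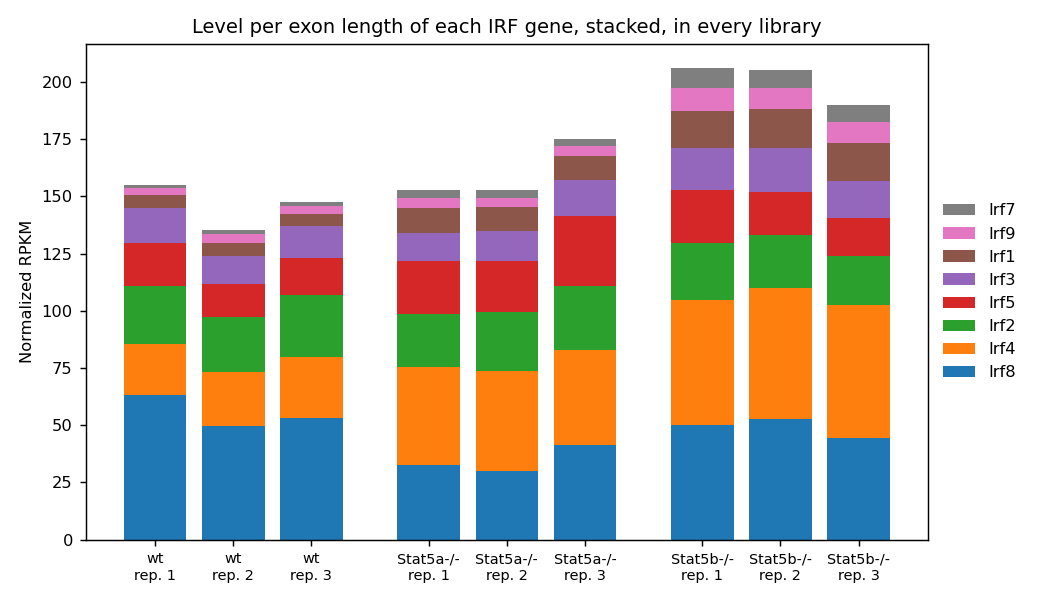
Normalized RPKM of the IRF genes stacked in each of the 9 libraries (x axis), on a linear axis from 0. Irf8 is the widest band in the 3 wt libraries and Irf4 in the 6 knockout libraries, and the Irf7, Irf9 and Irf1 bands at the top are widest in Stat5b-/-.

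Genes known to act with, before or after the IRF proteins were read from lists, whose called shares stand beside 19.8% higher and 16.3% lower of all genes tested in Stat5a-/- against wt, 24.2% and 22.0% in Stat5b-/- against wt, and 16.4% and 17.5% between the knockout lines. Of 15 targets known for ISGF3 and IRF7, 7 (46.7%) were higher in Stat5a-/- against wt, with a median log2 difference of 0.80, and 13 (86.7%) were higher and 1 (6.67%) lower in Stat5b-/-, with a median of 2.01. Over all genes tested the medians were 0.01 and 0.02, and over the T-cell markers 0.43 and 1.15, whose part in these counts was not tested. Ifi44 rose from 0.364 ± 0.183 CPM in wt to 3.70 ± 1.49 in Stat5b-/-, and Rsad2, which encodes the antiviral protein viperin, from 0.8605 ± 0.142 to 6.36 ± 1.36, with log2 differences of 3.26 (adjusted p = 5.13e-05) and 2.86 (adjusted p = 3.48e-06). Bst2, encoding tetherin, was the exception, lower by -1.08 (adjusted p = 2.14e-05). Between the knockout lines 10 of the 15 (66.7%) were higher in Stat5b-/- and 1 (6.67%), Bst2, lower, with a median of 1.21.

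Of 15 targets known for IRF1 that were tested, 10 (66.7%) were higher in Stat5a-/- and 14 (93.3%) in Stat5b-/- against wt, with medians of 0.96 and 1.29, and between the knockout lines 5 (33.3%) were higher and 3 (20.0%) lower in Stat5b-/-, with a median of 0.29. With the GC offset the 5 became 8, Psmb9, Psmb10 and Cd274 being gained. Whether they differed from the targets of ISGF3 and IRF7 was not tested. The T-cell markers moved with this list too, with 50.0% and 94.4% higher and medians of 0.43 and 1.15 against wt, and their part in these counts was not tested. The guanylate-binding protein gene Gbp2 averaged 7.19 ± 0.515 CPM in wt, 78.0 ± 9.19 in Stat5a-/- and 52.5 ± 6.94 in Stat5b-/-, and was lower in Stat5b-/- than in Stat5a-/- by -0.57 (adjusted p = 0.00339). Nlrc5, the transactivator of MHC class I genes, followed the order of Irf1 itself, with 34.3 ± 0.271, 72.5 ± 10.8 and 157 ± 19.7 CPM. Gbp2 thus peaked in the line with the middle level of Irf1, and Nlrc5 in the line with the highest.

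**Figure D4:**
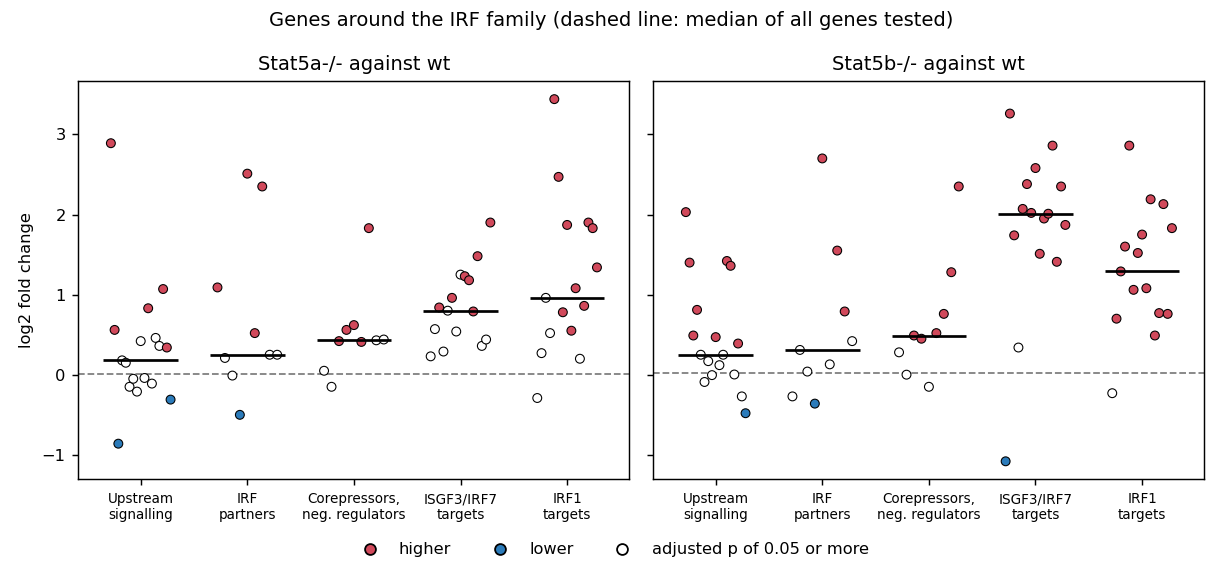
log2 fold change against wt (y axis) of genes in 5 lists around the IRF family (x axis), with black bars for list medians and a dashed line for the median of all genes tested; points are red when higher, blue when lower and white when the adjusted p was 0.05 or more. The median of the ISGF3 and IRF7 targets moves from 0.80 in Stat5a-/- to 2.01 in Stat5b-/-, and that of the upstream signalling genes is 0.18 and 0.25.

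Upstream of the factors, 17 genes of sensing and signalling had 5 (29.4%) higher and 2 (11.8%) lower in Stat5a-/- against wt, near the shares over all genes, and 8 (47.1%) higher and 1 (5.88%) lower in Stat5b-/-, with medians of 0.18 and 0.25. The T-cell markers had medians of 0.43 and 1.15, and their part in these counts was not tested. Among the 8, Slc15a4 had libraries that overlapped wt. Its call was lost with DESeq2, RLE normalization or the compared genotypes alone (adjusted p between 0.053 and 0.0739). It was also lost without wt replicate 2 or 3, Stat5a-/- replicate 1 or 2 or Stat5b-/- replicate 1 or 2. The DNA sensor gene Cgas was higher in both lines, with 1.19 ± 0.284 CPM in wt, 8.99 ± 0.281 in Stat5a-/- and 4.96 ± 0.987 in Stat5b-/-, and Tlr3, for a receptor of double-stranded RNA, rose by 1.42 (adjusted p = 0.00434) in Stat5b-/-, where it was still read at 2.39 CPM. The adaptor gene Traf6 was lower in both, by -0.31 in Stat5a-/- (adjusted p = 0.0363) and -0.48 in Stat5b-/- (adjusted p = 0.00263). The Stat5a-/- call of Traf6 was lost without wt replicate 2 or 3, Stat5a-/- replicate 2 or 3 or Stat5b-/- replicate 2 (adjusted p between 0.0507 and 0.153), which left 1 gene lower, and without Stat5a-/- replicate 3 or with the GC offset the genes lower in Stat5b-/- became 2. The other gene lower in Stat5a-/-, named here after its values were seen, was Ifih1, for the RNA sensor MDA5, with means of 7.24, 3.94 and 10.1 CPM in wt, Stat5a-/- and Stat5b-/-. Ifih1 was lower in Stat5a-/- by -0.86 (adjusted p = 0.00324) and higher in Stat5b-/- by 0.49 (adjusted p = 0.0349), the latter call being lost with DESeq2 and on leaving out each of the 3 wt libraries or Stat5b-/- replicate 1 or 2 in turn (adjusted p between 0.0587 and 0.0962). The interferon genes themselves gave almost no reads. Of 14 listed, 11 were at 0 in every library, including Ifnb1, the largest count of any in a library was 3 (Ifng in wt), and 0 passed the filter for testing. A count of 0 in a library still allows up to 3 reads by counting error alone.

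Among 9 partners of IRF proteins tested, 4 (44.4%) were higher and 1 (11.1%) lower in Stat5a-/- and 3 (33.3%) higher and 1 (11.1%) lower in Stat5b-/- against wt, with medians of 0.25 and 0.31. For so few genes the Stat5b-/- shares are close to or below those over all genes, and they moved to 5 higher without Stat5b-/- replicate 3 or with the GC offset, Tcf3 and Crebbp being gained. Batf joined as another gene lower in Stat5b-/- with DESeq2, with RLE normalization, with the GC offset and without wt replicate 2 or Stat5a-/- replicate 1 or 3 (adjusted p between 0.0202 and 0.0483). Spib, whose product Spi-B binds DNA with IRF4 and IRF8, averaged 38.4 ± 0.971 CPM in wt, 195 ± 18.6 in Stat5a-/- and 112.5 ± 16.0 in Stat5b-/-. Spi1, for PU.1, was called higher in Stat5a-/- (0.52, adjusted p = 0.0423) but not in Stat5b-/- (0.13, adjusted p = 0.589). The Stat5a-/- call of Spi1 was lost with DESeq2 (adjusted p = 0.0507) and RLE normalization (adjusted p = 0.0534). It was also lost without wt replicate 2 or 3, any Stat5a-/- replicate or Stat5b-/- replicate 2. Ikzf3, for the Ikaros-family factor Aiolos, rose by 2.51 in Stat5a-/- and 2.7 in Stat5b-/-, and Ikzf1, for Ikaros, was lower by -0.50 and -0.36. Of 9 corepressors and negative regulators, 5 (55.6%) rose in Stat5a-/- and 6 (66.7%) in Stat5b-/-, with medians of 0.43 and 0.49, and these counts fell to 3 without wt replicate 3 and to 3 without Stat5b-/- replicate 1. None was lower in either line by edgeR, by DESeq2 or at an unadjusted p under 0.05, a count of 0 that became 1 in Stat5a-/- with an offset for GC content (Irf2bp1). The T-cell markers had 50.0% and 94.4% higher, with medians of 0.43 and 1.15, and their part in the counts of this list was not tested. Usp18, which restrains the type I interferon receptor, stood at 3.20 ± 0.254, 4.33 ± 0.549 and 16.4 ± 1.72 CPM, and Trim21, which ubiquitinates IRF proteins, at 10.7 ± 1.38, 14.4 ± 2.20 and 26.1 ± 4.24 CPM in wt, Stat5a-/- and Stat5b-/-. In both genes the step between the knockout lines exceeded the spread between libraries, with log2 differences of 1.91 (adjusted p = 1.11e-06) and 0.86 (adjusted p = 0.00117).

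The pre-B-cell genes known to respond to IRF4 and IRF8 moved in both directions. Of 12, 5 (41.7%) were higher and 4 (33.3%) lower in Stat5a-/-, and 7 (58.3%) higher and 4 (33.3%) lower in Stat5b-/-, with medians of 0.26 and 0.51. The 5 higher in Stat5a-/- fell to 3 without wt replicate 2 or 3 or Stat5a-/- replicate 1 or 3, and with no filter on low counts, Cxcr4 and Vpreb1 being lost each time. The largest falls were in the recombinase genes. Rag1 was read at 64.7 ± 2.06 CPM in wt, with 1 to 3 reads a library in Stat5a-/- and 7 to 11 in Stat5b-/-, and Rag2 at 32.5 ± 4.43 CPM in wt, with 0 to 2 and 6 to 16 reads. Prdm1, for the plasma-cell factor Blimp-1, rose from 0.723 ± 0.375 to 2.27 ± 0.640 CPM in Stat5b-/- (log2 difference 1.65, adjusted p = 0.00236). Genes of several lists are shared, 9 in all, and each was counted under every list that holds it.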

How the data were processed

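mRNA of 9 libraries was sequenced as 50 bp single-end reads. The authors trimmed the reads (Trimmomatic), mapped them with STAR to GRCm38 and deposited unnormalized counts per gene for 50686 genes. The file headers name featureCounts 1.5.1 and show no option for strand or for reads mapping to several places, so that reads in exons shared by genes are left out. Genotypes were taken from the sample labels, though the description field of the knockout samples reads as wt. GENCODE M21 named 50376 genes, and Cgas was found through a RefSeq synonym. Counts of libraries from the same line varied beyond sampling noise (chi-square per degree of freedom 4.63 to 28), so each was kept as its own library. Counts were normalized with TMM, filtered with filterByExpr and fitted over all 9 libraries by glmQLFit and glmQLFTest of edgeR (version 4.0.16, under R 4.3.3), with Benjamini-Hochberg adjustment over 13852 genes and calls at an adjusted p under 0.05. Each standard error is the log2 difference divided by the root of its F statistic. The steps were tested on simulated counts. Reads carry no molecular identifiers and so are not independent molecules, and genes with few reads are imprecise at this depth.

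The members and lists were chosen with earlier results of these data known. Named were the members, up to 2 largest rises and 2 largest falls of each list in Stat5b-/- against wt among called genes, overlapping and neighbouring genes, the knocked-out genes, and for each member past a fold change of 2 the 3 genes of highest Pearson correlation over the libraries. Alternatives were DESeq2 1.42.0, RLE normalization, no filter, genes kept from a mean count of 10, fits to the compared genotypes alone, each library left out, the replicate number as a block, a fold change above 2, an adjusted p under 0.01 and, chosen after seeing the data, an offset for GC content (loess span 0.5) with and without the block. A planned comparison of protein sequences was not made, and some genes are not reported here.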

Additional observations from a re-analysis of the deposited data

How the results depend on the processing

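The log2 differences of the members were recomputed 408 times under the alternatives, of which 384 kept direction and side of the threshold, 13 lost a call, 6 gained one and 5 changed sign. The sign changes were all in uncalled differences of Stat5a-/- from wt: Irf2 (0.03 without wt replicate 3, 0.05 without Stat5a-/- replicate 1, over a range of -0.1 to 0.05 with each library left out, and 0.07 with the GC offset with or without the block) and Irf3 (-0.2 without Stat5a-/- replicate 3 to 0.02 without wt replicate 1). With a fold change above 2 required, 1 member was higher and 0 lower in Stat5a-/- against wt, and 2 were higher in Stat5b-/- against Stat5a-/-. With the GC offset, with or without the block, 2 members were lower in Stat5a-/- against wt, Irf3 joining Irf8 (-0.25, adjusted p = 0.0166 without the block), and Irf5 was called higher in Stat5b-/- against wt (0.26, adjusted p = 0.0259). Without a filter on low counts 1 member, Irf5, was lower in Stat5b-/- than in Stat5a-/-, and leaving out 1 library gave 0 to 1, the 1 being Irf5 without Stat5b-/- replicate 1 (-0.54, adjusted p = 0.0291). The replicate numbers gave no sign of pairing the libraries, though so few pairs cannot exclude it. The deviations from the line means had a mean correlation of -0.0877 (range -0.445 to 0.216) in the 9 pairs of equal number. In the 18 other pairs the mean was 0.0438 (range -0.426 to 0.391). With the replicate block, 4 members in place of 5 were higher in Stat5b-/- against wt, Irf3 being lost (adjusted p = 0.0634), and DESeq2 also gave 4. The block left 4 higher and 1 lower in Stat5a-/- against wt, 0 lower in Stat5b-/- against wt, and 6 higher and 0 lower between the knockout lines. In the lists it left 3 pre-B-cell genes in place of 5 higher and 1 signalling gene in place of 2 lower in Stat5a-/- against wt, and the block also ended the call of Ifih1 in Stat5b-/- against wt (0.49, adjusted p = 0.0569). The cause of these shifts was not tested. Of the counts for the gene lists, 625 stayed within 1.5 times and 59 did not.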

Other observations

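Among all genes tested, those whose log2 CPM followed a member most closely over the 9 libraries were listed as a description, since the libraries fall into 3 lines and any gene with the same steps between them correlates highly. Nearest to Irf7 were Pag1 (Pearson r = 0.998), which averaged 40.5, 96.7 and 290.0 CPM in wt, Stat5a-/- and Stat5b-/-, Il21r (0.996) and Kifap3 (0.995). Irf1 was followed by Gcnt1 (0.997), Cd82 (0.997) and Gm12250 (0.996). For Irf4 the nearest were Asf1b (0.997), Irgm2 (0.993), an immunity-related GTPase gene, and H2-Q4 (0.993). Irf9 was followed by the T-cell kinase gene Zap70 (0.994), which is also in the T-cell marker list and averaged 7.90, 9.86 and 40.1 CPM, by Sipa1l2 (0.993) and by Usp18 (0.993).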
